A study of Mus musculus with 4 samples.

Results

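Zim1, Peg3 and Usp29 lie side by side in the Peg3 imprinted domain of mouse chromosome 7, and their RNA was read here in fat of the epigonadal pad, a visceral depot next to the testis. The members were the probes whose only gene symbol is 1 of these 3 names. That gave 3 probes, 1 for each gene, of 41345 probes on the array and 23521 with a single symbol. Zim1 and Peg3 had been picked because their values were low in LDKO fat, so that contrast is a description for them and supports nothing. Usp29 belongs to the set by its place in the domain.

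All mice were fasted males, and each of the 4 genotypes gave 1 array. The Irs1/2-flox control carries floxed alleles of the insulin receptor substrate genes Irs1 and Irs2 and no Cre. LDKO mice carry the same floxed alleles with Albumin-Cre, a recombinase gene under the albumin promoter, which is active in hepatocytes. The Irs1/2:FoxO1-flox control carries floxed Foxo1 as well, again without Cre, and LTKO mice carry those 3 floxed genes with Albumin-Cre. Floxed Irs1 and Irs2 are thus common to all groups, and the Cre is directed at liver and not at the fat that was sampled. The labels give an age of 4 months for LDKO and LTKO, none for the controls, and no strain, and they leave out whether RNA was pooled over mice. With 1 array a group, no value below has an error, a replicate check or a p-value. Precision is limited by the number of arrays.

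Imprinted genes are read mainly from the allele of one parent. In the mouse Peg3 and Usp29 are read from the paternal allele and Zim1 from the maternal allele, under a control region that overlaps the start of Peg3 and is methylated on the maternal chromosome. Peg3, also called Pw1, encodes a large zinc-finger protein that binds DNA, is linked to growth and body fat, and marks progenitor cells in several tissues. Zim1 encodes a zinc-finger protein of the Krüppel type, and Usp29 a ubiquitin-specific protease known mainly from brain and testis. A probe of an expression array reads both alleles together, so no value here tells which allele was active.

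The start regions of Peg3 and Zim1 are shown because the genes with low LDKO signal begin there, and Usp29, whose probe was dim in every array, begins beside Peg3. RefSeq windows of the GRCm38.p6 build, from 250 bases before to 50 bases after each start, were found for all 3 members. The Peg3 window is chr7:6730370-6730669 and the Zim1 window is chr7:6696383-6696682, both on the minus strand. Capitals mark TGACGTCA (the cAMP response element), CCAAT (the CCAAT box, ATTGG on the other strand) and GGGCGG (the GC box), searched on both strands.
Peg3: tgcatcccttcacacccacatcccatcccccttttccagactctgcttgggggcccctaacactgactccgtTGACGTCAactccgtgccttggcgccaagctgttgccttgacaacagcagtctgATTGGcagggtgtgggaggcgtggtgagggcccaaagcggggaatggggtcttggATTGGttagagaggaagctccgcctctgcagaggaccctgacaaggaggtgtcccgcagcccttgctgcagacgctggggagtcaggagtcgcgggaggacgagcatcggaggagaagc
Zim1: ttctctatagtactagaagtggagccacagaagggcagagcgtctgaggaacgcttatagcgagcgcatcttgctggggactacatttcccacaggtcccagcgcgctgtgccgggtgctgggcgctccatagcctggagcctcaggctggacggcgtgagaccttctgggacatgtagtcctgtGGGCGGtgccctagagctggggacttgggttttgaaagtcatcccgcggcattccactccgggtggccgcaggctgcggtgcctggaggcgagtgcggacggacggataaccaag

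Usp29 starts 164 bases from Peg3 on the opposite strand, so its window, chr7:6730333-6730632 on the plus strand, shares 263 of its 300 bases with that of Peg3. The Peg3 window held 1 TGACGTCA, 178 bases before the start, and 2 matches to CCAAT, 124 and 69 bases before it. The same letters lie in the Usp29 window, with the TGACGTCA 8 bases into the transcript. The Zim1 window held neither, and its GGGCGG lay 65 bases before the start. Over 32851 windows of this length, 1.79% held TGACGTCA, 37.4% CCAAT and 35.7% GGGCGG. Neither GCCAT, the core of the YY1 motif (in 40.5% of windows), nor TGTTTAC, a FoxO motif (in 3.65%), was in any of the 3 windows. No 2 of these motifs overlapped in them. The Zim1 window held 20 CpG sites, the Peg3 window 13 and the Usp29 window 17, against a median of 7 over all windows. Of all windows, 73.5%, 62.1% and 68.6% held fewer than these, in that order. These matches describe letters and not bound sites, and bases outside the windows were not searched.

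Values are log2 signals after RMA, the authors' normalization, and 1 unit is 2-fold. The signal of Zim1 was 5.66 in LDKO and 8.69 in LTKO, against 9.41 in the Irs1/2-flox control and 9.75 in the Irs1/2:FoxO1-flox control. LDKO was the lowest array, LTKO lay between it and the controls, and the controls were the highest. The signal of Peg3 was 9.07 in LDKO and 11.30 in LTKO, against 11.35 in the Irs1/2-flox control and 11.45 in the Irs1/2:FoxO1-flox control. Here LDKO stood alone, and the other 3 arrays lay within 0.16 of each other. The signal of Usp29 was 3.08 in LDKO, 2.86 in LTKO, and 2.96 and 3.01 in the Irs1/2-flox and Irs1/2:FoxO1-flox controls, a range of 0.22 over all 4 arrays. Usp29 lay below 5.15, the mean signal of the median gene and the limit used here for dim genes, in every array. Peg3 and Zim1 passed that limit in every array. RMA compresses differences of dim probes, so the low LDKO value of Zim1 and all values of Usp29 may understate differences.

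**Figure D1:**
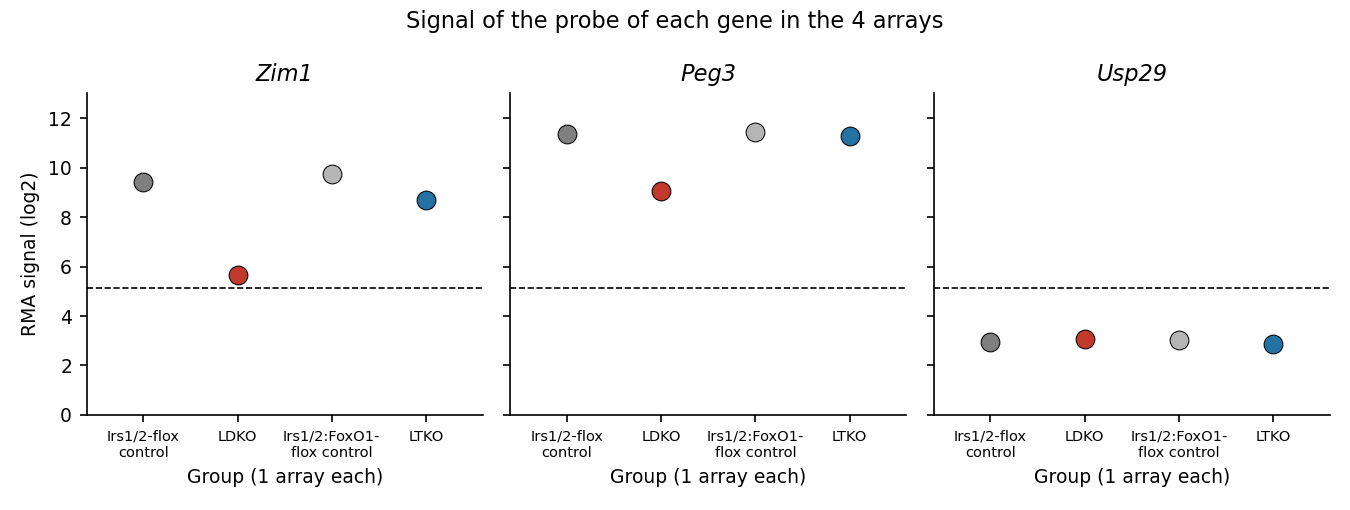
RMA signal on the log2 scale (vertical axis) of the single probe of Zim1, Peg3 and Usp29 in the 4 groups (horizontal axis), with 1 point per array and a dashed line at the signal of the median gene, 5.15. LDKO is the low point for Zim1 (5.66) and Peg3 (9.07), and the 4 values of Usp29 lie between 2.86 and 3.08.

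A further probe, 17473637, is annotated to several overlapping genes of the domain, a member among them, and so names none of them. Which of their RNAs it reads was not tested. Its signal was 4.74 in LDKO, 7.24 in LTKO, 7.23 in the Irs1/2-flox control and 7.38 in the Irs1/2:FoxO1-flox control. It differed by −2.48 between LDKO and its control, and by −0.14 between LTKO and its control. As for Peg3, LDKO stood below 3 arrays that lay close together. Probe 17486128, which also carries several symbols of the domain, was dim throughout, between 3.20 and 3.38.

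The first comparison concerns fat of mice with Irs1 and Irs2 targeted in hepatocytes. Zim1 was 13.5-fold lower in LDKO than in the Irs1/2-flox control. Its difference, −3.75 on the log2 scale, was the most negative of the 11533 genes that were not dim in this pair of arrays. Peg3 was 4.86-fold lower, and its difference of −2.28 ranked 7 from the lowest. Usp29 differed by 0.11, below the median absolute difference of all genes, 0.18. Of the 3 members 2 were thus at least 2-fold lower, where 0.624% of all genes were, and since these 2 were picked on this contrast nothing is read from that count. Zim1 was further apart than Peg3 by 1.47. Against the other control, the differences were −4.09 for Zim1, −2.38 for Peg3 and 0.06 for Usp29.

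The low signal belonged to the LDKO array itself and not to its control. Zim1 in LDKO lay 3.03 below the lowest of the other 3 arrays, and Peg3 lay 2.23 below. These gaps ranked 2 and 4 among 11958 genes whose highest array passed the filter. Usp29 was highest in LDKO, but it was below the limit for dim genes in every array, where a decrease could hardly be seen. LDKO was the lowest of the 4 arrays at 37.4% of these genes, and at least 2-fold below each other array at 0.184% of them. Since the rule used this array, the ranks are a description.

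The second comparison turns to mice in which Foxo1 is targeted in hepatocytes together with Irs1 and Irs2. Zim1 was 2.09-fold lower in LTKO than in the Irs1/2:FoxO1-flox control, and its difference of −1.06 ranked 5 from the lowest of 11533 genes. It was the 1 member of 3 at least 2-fold lower, where 0.0434% of all genes were. That share moved with the reference, from 5 genes with its own control to 47 with the other. Against the Irs1/2-flox control the Zim1 difference was −0.72, which is 1.65-fold, so its place past 2-fold held only with its own control. Peg3 differed by −0.16, and 43.1% of genes were at least as far apart. Usp29 differed by −0.16 as well, with 43.5% of genes at least as far apart. The median absolute difference of all genes was 0.13.

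The 2 controls, which carry no Cre, show how far 2 arrays differ without the deletion, though they also differ in floxed Foxo1. Zim1 was higher in the Irs1/2:FoxO1-flox control by 0.34, Peg3 by 0.10 and Usp29 by 0.05. None of the 3 was 2-fold apart, where 0.77% of genes were, and 18.1%, 66.6% and 82.1% of 11432 genes were at least as far apart as Zim1, Peg3 and Usp29. The median absolute difference between the controls was 0.16. The LTKO difference of Zim1, −1.06, exceeded that figure in size, and that of Peg3, −0.16, was about equal to it. Being a median, the figure is exceeded by many genes between the controls and sets no limit for noise.

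The third comparison put the Cre lines next to each other, since they differ in whether Foxo1 is targeted in hepatocytes. Deletion in liver was not measured here, and each line has its own floxed control. Set directly against LDKO, LTKO was higher by 3.03 for Zim1 and by 2.23 for Peg3, which ranked 4 and 16 from the highest of 11660 genes. Usp29 differed by −0.22. At least 2-fold higher values were found for 2 of 3 members and 1.51% of all genes, but this contrast holds the LDKO array on which both were picked. With each line set against its own control, the LTKO difference exceeded the LDKO difference by 2.69 for Zim1 and 2.12 for Peg3, where 2.93% of genes were at least 2-fold higher. For Usp29 this value was −0.27. LTKO thus lay within 0.16 of the controls for Peg3, and for Zim1 between LDKO and the controls.

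**Figure D2:**
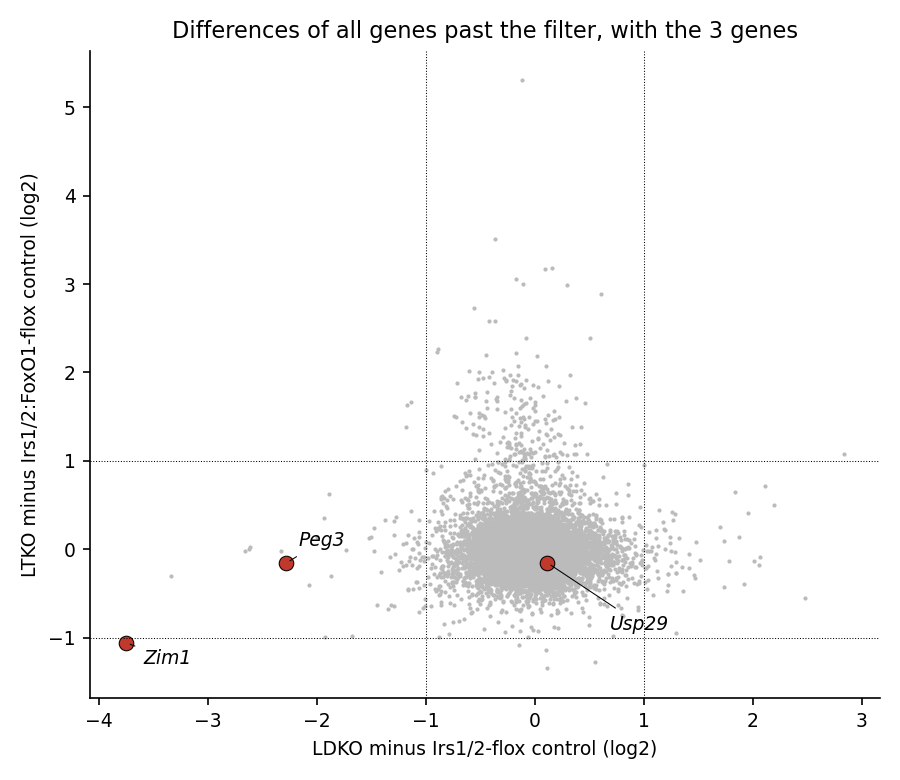
Log2 difference of LDKO from its control (horizontal axis) and of LTKO from its control (vertical axis), with a grey point for each gene whose highest array passed the filter and red points for the 3 members; dotted lines mark 2-fold. Zim1 lies at −3.75 and −1.06, Peg3 at −2.28 and −0.16, and Usp29, which is below the filter, at 0.11 and −0.16.

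No gene measured around the domain had an LDKO difference as low as those of Zim1 and Peg3, but most were dim. In the order of the annotation, the 8 nearest measured genes before the domain are olfactory receptor genes, and those after it are Aurkc, a meiotic kinase gene, then zinc-finger genes, vomeronasal receptor genes and the chloride transporter gene Clcn4. Over these 17 genes, the LDKO difference ran from −0.30 (Zfp418) to 0.63 (Zfp772), with a median of 0.04, and 10 were higher and 7 lower. None was 2-fold apart, where 1.2% of genes past the filter were. In LTKO the range was −0.47 (Zfp954) to 0.75 (Zfp772), with a median of −0.03, and again none was 2-fold apart, where 1.78% of genes past the filter were. Of the 17 genes 2 passed the filter in any array, Olfr1348 and Clcn4, and in the rest a decrease could hardly be seen at such low signals.

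Clcn4 was the 1 bright neighbour. Its signal was 7.44 in LDKO, 7.40 in LTKO, 7.51 in the Irs1/2-flox control and 7.46 in the Irs1/2:FoxO1-flox control, so all 4 arrays lay close together. Aurkc, by the brighter of its probes, was at 4.64, 4.31, 4.60 and 4.64 in that order. Mir3099, a microRNA gene inside Usp29, was dim, between 2.09 and 2.16. Zim2, Zim3, Peg3os and Zfp264 had no probe with their symbol alone and were not analysed here.

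**Figure D3:**
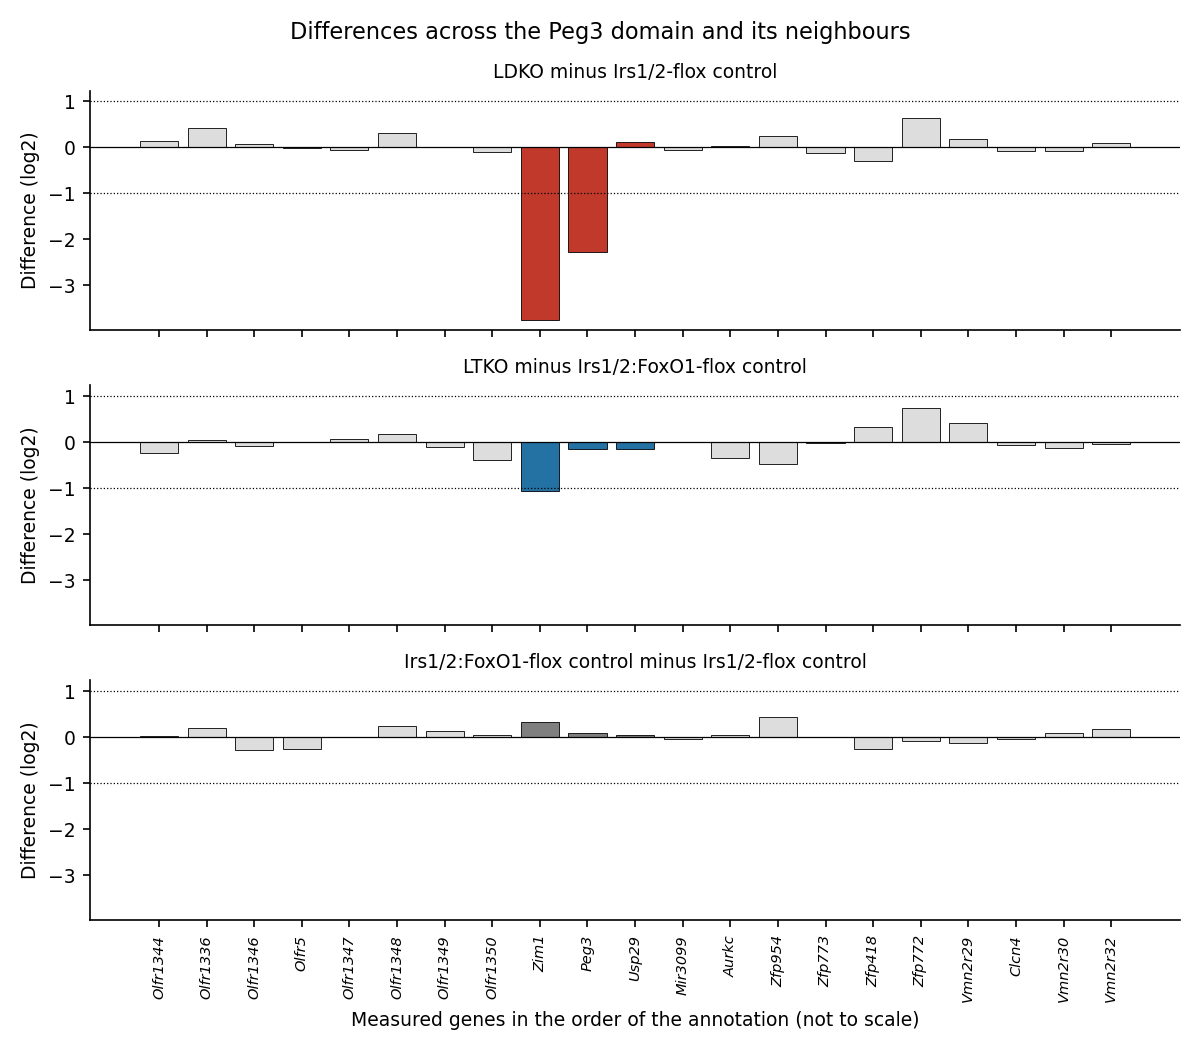
Log2 difference (vertical axes) of each measured gene in annotation order (horizontal axis, not to scale) for LDKO, LTKO and the Irs1/2:FoxO1-flox control, each against the control named above the panel. Coloured bars are Zim1, Peg3 and Usp29, grey bars are other genes, and dotted lines mark 2-fold: only Zim1 (−3.75 and −1.06) and Peg3 (−2.28) pass them.

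Genes were then ranked by how near their 4 values, each gene minus its own mean, lay to those of a member. For Peg3 the nearest were Gprin3 (distance 0.34), a regulator of neurite outgrowth, the pantetheinase Vnn1 (0.37), the imprinted gene Mest (0.39), Adap2 (0.39) and the transcription factor Irf4 (0.71). Mest, which is read from the paternal allele and known to vary with fat mass, had a signal of 8.55 in LDKO, 10.26 in LTKO, 10.42 in the Irs1/2-flox control and 10.56 in the Irs1/2:FoxO1-flox control. As with Peg3, LDKO was the low array and the other 3 lay close together, which follows from choosing genes by this likeness. Gprin3 was at 6.31, 8.30, 8.65 and 8.33 in the same order, Vnn1 at 7.34, 10.08, 9.96 and 10.05, and Adap2 at 8.54, 10.51, 10.54 and 10.37. Within a distance of 0.5 of Peg3 there were 4 genes of 11958.

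For Zim1 the nearest genes were further off. They were the matrix glycoprotein gene Thbs2 (1.11), Vnn1 (1.15), Peg3 itself (1.33), Gprin3 and Irf4 (1.58), and no gene lay within 0.5. Thbs2 was at 7.10 in LDKO, 9.37 in LTKO, 10.44 in the Irs1/2-flox control and 9.67 in the Irs1/2:FoxO1-flox control. Irf4 was at 6.75, 8.59, 9.42 and 8.61 in that order, so unlike Zim1 and Peg3 it was also lower in the Irs1/2:FoxO1-flox control than in the other control, with a difference of −0.81 between them. For Usp29, whose values were nearly flat, 9848 genes lay within 0.5, and the nearest were Krcc1, Timm21, Col5a1, Ffar4 and Ints5. Likeness over 4 arrays says nothing of a shared function.

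**Figure D4:**
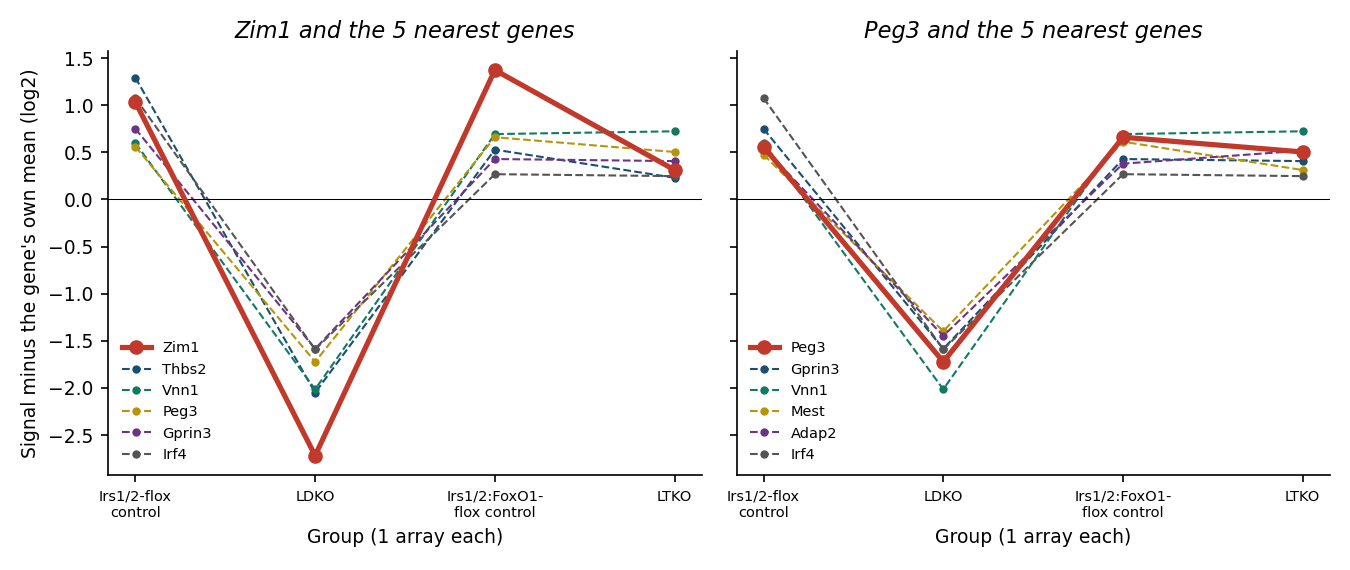
Log2 signal minus each gene's own mean (vertical axis) in the 4 groups (horizontal axis, 1 array each) for Zim1 and Peg3 (thick red) and the 5 genes nearest to each (dashed); lines join the points of a gene for reading only. LDKO is the low point of every gene, which follows from how the genes were chosen. Zim1 is higher in the Irs1/2:FoxO1-flox control and lower in LDKO than the 5 genes beside it.

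Peg3 is counted in a network of imprinted growth genes whose levels tend to move together. Of 14 other genes of that network 13 were measured, and 10 were at or above the median gene. Their median LDKO difference was −0.19, with 3 higher and 7 lower, against a median of −0.05 and 57.4% lower over 11090 genes of like level. Mest, at −1.87, was the 1 gene of 10 at least 2-fold lower, where 0.624% of all genes past the filter were. The list was chosen with earlier results of these data known, so nothing is read from that count. The amino acid transporter gene Slc38a4 differed by −0.59, the growth inhibitor gene Grb10 by −0.50 and Igf2r, which encodes the receptor that clears IGF2, by −0.26. Igf2 differed by −0.14, Plagl1, a zinc-finger regulator of the network, by 0.13 and the cell cycle inhibitor gene Cdkn1c by 0.05. In LTKO the median was −0.03, against −0.04 over genes of like level, and Mest differed by −0.30. Slc38a4 was higher by 1.54 in LTKO, where 1.78% of genes past the filter were 2-fold apart. The LTKO array alone had a raised mean of hepatocyte markers (6.60, at most 4.88 elsewhere). The part of hepatocyte RNA in the Slc38a4 value was not tested. Between the controls Slc38a4 differed by −0.76 and Mest by 0.14.

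Among factors that set or keep imprints, none was 2-fold apart in LDKO, where 1.2% of all genes past the filter were. Of 16 genes, 11 were at or above the median gene, with a median LDKO difference of −0.18, 2 higher and 8 lower, against −0.05 and 57.4% lower over genes of like level. Trim28 and Zfp57, which hold methylation at imprints, differed by −0.21 and −0.18. Yy1, whose protein binds the Peg3 control region, differed by −0.21, and the maintenance methyltransferase gene Dnmt1 by 0.08. The demethylase gene Tet2 differed by −0.31 and Tet3 by 0.24. Tet1, whose mean was below the median gene, differed by 0.24 and Zfp445 by −0.24. In LTKO the median was 0.02.

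The protein of Peg3 is known to bind TRAF2 and SIAH1A in tumour necrosis factor and cell death signalling. Of 15 genes of that route 12 were measured and 10 entered, of which 9 were lower in LDKO, with a median of −0.11, where 57.4% of genes of like level were lower and their median was −0.05. None was 2-fold apart, against 1.2% of all genes past the filter. Traf2 differed by −0.33, the NF-kappaB inhibitor gene Nfkbia by −0.28, Birc2 by −0.20, Tradd by 0.18 and Siah1a by −0.03. In LTKO the median was −0.02. For autophagy, which the Peg3 protein is reported to induce in endothelial cells exposed to decorin, 14 of 15 genes entered, with medians of −0.07 in both LDKO and LTKO. Met, a receptor bound by decorin, was higher in LDKO by 0.81, Becn1 differed by 0.03 and the decorin gene Dcn by −0.25. Gabarapl1 differed by −0.57, Atg7 by 0.31 and Map1lc3a by −0.31.

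USP29 is known to remove ubiquitin from p53. Of 21 genes of p53 and its targets 19 were measured and 15 entered, with a median LDKO difference of −0.08, 6 higher and 9 lower. That is near the median of −0.05 and the 57.4% lower over genes of like level. Trp53inp1, a p53 target that promotes autophagy and cell death, was the 1 gene of 15 at least 2-fold lower, where 0.624% of all genes past the filter were. This list too was chosen with earlier results of these data known, so nothing is read from that count. The signal of Trp53inp1 was 8.23 in LDKO, and 9.24 was the lowest of the other 3 arrays and 9.64 the highest. Sesn2 differed by −0.89, the cell cycle inhibitor gene Cdkn1a by −0.85 and Perp by −0.69, while Mdm2, which marks p53 for breakdown, differed by −0.04. Cdkn1a also differed by −1.08 between the controls. In LTKO the median of the list was −0.02, with 7 higher and 8 lower. Sesn2 differed there by 0.30, Cdkn1a by 0.60, Perp by 0.77 and Trp53inp1 by −0.26. Of 4 other ubiquitin-specific protease genes, Usp37, a close relative of Usp29, differed by −0.39 in LDKO and 0.41 in LTKO. Usp10 differed by −0.40 in LDKO, Usp7 by 0.03 and Usp26, which was dim, by 0.24.

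**Figure D5:**
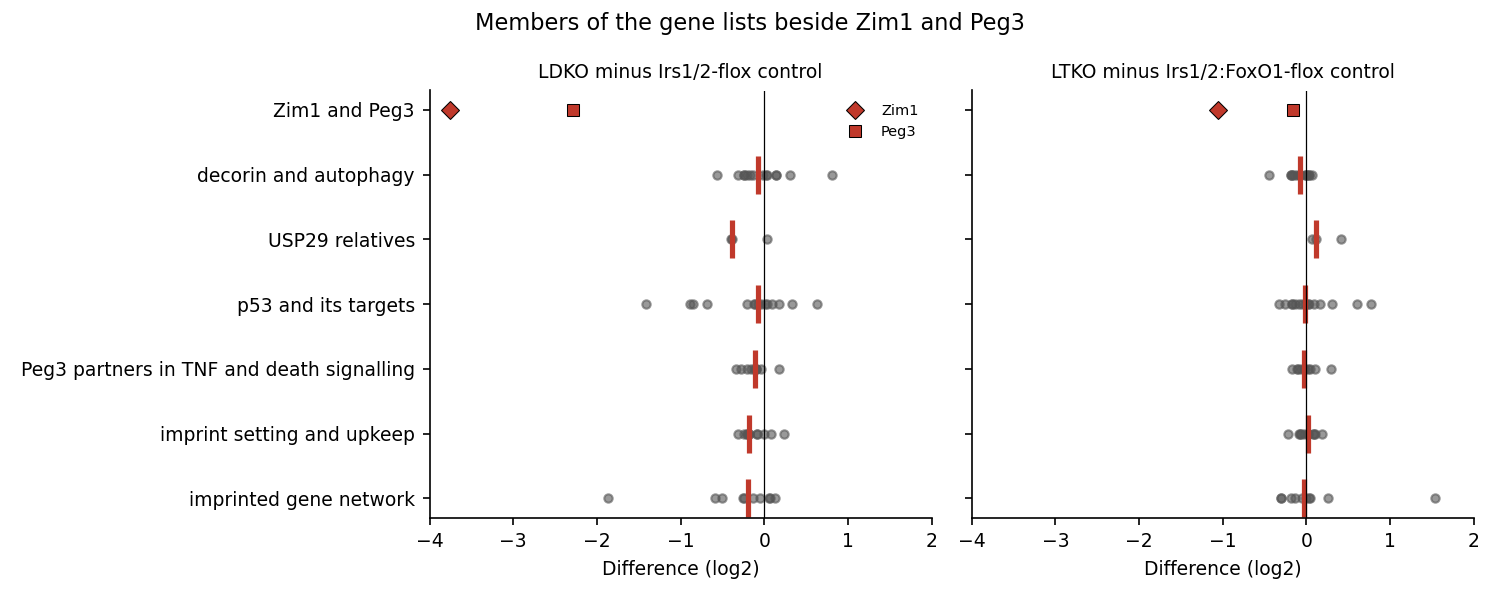
Log2 difference (horizontal axes) of each entered gene of 6 gene lists (rows) in LDKO and LTKO against their controls, with a grey point per gene and a red bar at the list median; Zim1 (diamond) and Peg3 (square) are in the top row. In LDKO the list medians lie between −0.39 and −0.07, and both members lie below every list gene.

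In bulk tissue, fewer cells of a type and less RNA per cell cannot be told apart. The fat label was borne out by adipocyte markers: all 7 measured of 8 were at or above the median gene, with mean signals between 10.92 and 11.04 over the arrays. Peg3 is known to mark progenitor cells elsewhere. Of 10 stromal progenitor markers at or above the median gene, 9 were lower in LDKO, where 57.4% of genes of that level were. So were 7 of 7 macrophage, 10 of 10 mesothelial and 5 of 5 skeletal muscle markers of that level, but 3 of 7 adipocyte and 3 of 7 endothelial markers. The mean of the 11 measured progenitor markers was 8.09 in LDKO, 8.17 in LTKO, 8.38 in the Irs1/2-flox control and 8.30 in the Irs1/2:FoxO1-flox control. Pdgfra was at 8.78, 9.09, 9.23 and 9.43 in that order. The mean of 8 macrophage markers was 7.85, 7.79, 8.34 and 8.20. The mean of 11 mesothelial markers was 7.27 in the Irs1/2-flox control and between 6.54 and 6.69 in the other arrays, and that of 8 skeletal muscle markers 6.07 against 4.94 to 5.11. Muscle satellite cell markers were dim, with none of 5 at the median gene. Marker means were raised in LTKO alone for epididymis (5.75 over 8, at most 3.95 elsewhere). The same held for testis (6.42 over 7, at most 4.70) and hepatocytes (6.60 over 7, at most 4.88). Only 1, 1 and 3 of these markers, in that order, were at or above the median gene. Of these markers, all but Lcn5, Spink2, Odf1 and Apoc3 were highest in LTKO. The part of the progenitor, macrophage, mesothelial and muscle signal in the LDKO differences, and of these tissues in the LTKO values, was not tested.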

How the data were processed

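RNA of 4 fat samples, 1 per genotype, was labelled with a GeneChip whole-transcript kit, per the labels' protocols. The authors deposited log2 signals. Per the submitters' processing notes these come from Affymetrix Expression Console with RMA, a method that corrects background, equalises the arrays' distributions and summarises the probes of a set. No versions are given. RMA removes a shift common to all genes and compresses differences of dim probes. Array medians lay between 4.68 and 4.73, and Pearson's r between arrays, across genes, between 0.986 and 0.991.

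Of 41345 probes, 23521 had 1 gene symbol, 1814 several and 16010 were unnamed here. Symbols were updated by gene identifier to GRCm38.p6 (23328 matched), used for names and gene order. A gene was its single-symbol probe of highest mean, which gave 22180 genes. Differences are of log2 values, with no test. Genes entered a comparison where the highest of its arrays reached 5.15, and lists took members whose mean did. The members and the lists were chosen with earlier results of these data known. Named were all member probes, the genes of the domain and its neighbours, up to 4 genes of each other list by size of the LDKO difference and the 5 nearest in pattern; Igf2, Plagl1, Cdkn1c, Trim28, Zfp57, Yy1, Dnmt1, Siah1a, Becn1, Dcn, Mdm2, Usp26 and Pdgfra were added after their values were seen. Alternatives were other references, scalings, thresholds, filters and probe rules. The steps were tested on simulated data. Tools were statsmodels 0.14.6, pandas 2.3.3, matplotlib 3.10.9 and numpy 2.4.6 in Python 3.11.15.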

Additional observations from a re-analysis of the deposited data

Results flagged for a closer look

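With 1 array a group, results whose signs were opposite in the Cre lines were not tested for that difference. Usp29 differed by 0.11 in LDKO and −0.16 in LTKO, both within the 0.16 median absolute difference between the 2 controls. The median of the imprint setting and upkeep genes was −0.18 in LDKO and 0.02 in LTKO. The median of 3 bright genes of other ubiquitin-specific proteases was −0.39 in LDKO, the value of Usp37, and 0.11 in LTKO, the value of Usp10.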

How the results depend on the processing

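No paired analysis was possible because each group has 1 array. Of 63 member differences under other settings, 56 moved by less than 0.16, the median absolute difference between the controls, and none that was past 2-fold changed sign. With the other control and with the mean of both controls as reference, the Zim1 difference was −4.09 and −3.92 in LDKO and −0.72 and −0.89 in LTKO, and LTKO exceeded LDKO by 3.37 and 3.03; Peg3 by 2.33 with the other control. Zim1 in LTKO was thus under 2-fold with either of these references.

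Genes 2-fold lower in LTKO numbered 5 with its own control, 47 with the other, 11 with the mean of both, 8 without a filter and 2 with one at the 70th percentile. At 1.5-fold and 3-fold, 448 and 15 genes were lower in LDKO, 100 and 0 in LTKO, 284 and 7 in the control with floxed Foxo1, and 631 and 48 were higher in LTKO than in LDKO, where the stricter filter left 100. Of 96 list medians 94 moved by less than 0.16. That of the ubiquitin-specific protease genes other than Usp29 was −0.10 in LDKO with the other control and −0.18 over all measured members. By distance over the 2 differences from the matched controls, 4 of the 5 genes nearest to Zim1, 3 of those nearest to Peg3 and 1 of those nearest to Usp29 were named again. Dim signal limits what Usp29 and most neighbours can show.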
